A study of Mus musculus with 4 samples.

Results

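Lgr5 and 9 genes of the Wnt pathway that act as its targets or its feedback regulators were followed across 4 mouse RNA samples. The members were Lgr5, Lgr4, Ascl2, Axin2, Rnf43, Znrf3, Tnfrsf19, Nkd1, Sp5 and Notum, chosen by gene name, and all 10 of them were found among the 30175 gene names of a 1-colour Agilent array. They were read by 14 probes, each spotted 1 time per array: 6 members had 1 probe and 4 had 2 probes. The samples were the organoid samples labelled o-organoid and y-organoid (crypt-villus organoids, epithelial structures grown in culture from gut crypts), a sample of crypts, the epithelial pits that hold the stem cells of the gut wall, and a sample of whole intestine. All were wild type, of strain C57/BL6, with no treatment or genotype that differed between groups, and each was hybridised to 1 array. RNA input to labelling was 40 ng for o-organoid, against 20 ng for y-organoid, crypt and whole intestine. What y and o stand for, the ages, the number of animals behind a sample and the culture medium are not given in the sources used here.

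Wnt ligands bind Frizzled receptors and Lrp co-receptors, which lets beta-catenin build up and act with TCF and LEF factors on target genes. R-spondins strengthen this signal: they bind Lgr4 or Lgr5 and draw the ubiquitin ligases Rnf43 and Znrf3, which otherwise remove Frizzled, from the cell surface. In the gut the pathway is most active at the crypt base, where Lgr5-positive stem cells lie among Paneth cells. Many of its targets damp it in turn: Axin2 is a scaffold of the complex that degrades beta-catenin, Nkd1 binds Dishevelled, and Notum strips Wnt ligands of the lipid they need.

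With 1 array per group there are no replicates, and no difference between groups carries a test, a p-value or a standard error. Signals are given as log2 of the processed intensity, less the log2 of the array's 75th percentile. Each difference is the signal on the first named array minus that on the second, and a gene counted as higher or lower at 2-fold, a difference of 1. The error given is a technical SD from probes spotted 10 times, taken near the member's own signal, and it leaves out labelling, hybridisation and animals. Between 51.9% and 58.7% of spots were well above background by the scanner software's flag, and no spot was saturated. By its brightest probe every member was well above background on all 4 arrays, so all 10 entered each comparison. In RNA of mixed cells, fewer cells of a type and less RNA per cell cannot be told apart.

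The labelled materials carried the markers fixed for them in part. All 12 general epithelial genes were well above background on every array, with summed linear signals of 605 on o-organoid, 632 on y-organoid, 994 on crypt and 892 on whole intestine. Against crypt 3 of the 12 were at least 2-fold lower and 1 higher on y-organoid, and 3 and 0 on o-organoid. Krt20 (-5.08 and -5.41) and Vil1 (-2.78 and -2.22) led the lower ones, so these sums do not measure epithelial content alone. Of 12 fibroblast and stroma genes, 1 was above background on each of the o-organoid, y-organoid and crypt arrays, and 12 were on whole intestine, where their summed signal was 69.1 against 0.472 on crypt. The summed signal of 12 enterocyte genes was 267 on o-organoid, 94.8 on y-organoid, 1732 on crypt and 2036 on whole intestine, so the crypt sample carried transcripts of differentiated cells. Xist, the RNA that coats the silenced X chromosome in female cells, was detected on whole intestine only, and the Y-linked genes Eif2s3y and Ddx3y on the other 3 arrays only. Sex and animal therefore cannot be told apart from tissue where whole intestine is compared.

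Promoter windows of 7 of the 10 members were found in RefSeq sequence of build GRCm38.p6, covering 250 bases before and 50 after a start site. They are shown because TCF and LEF factors, the endpoint of the pathway, bind DNA around the letters CTTTGA. The 7-letter motif CTTTGAT was searched on both strands, together with CTTTGA, which it contains. Windows of 2 members, Sp5 and Tnfrsf19, held each motif, and those of Lgr4, Ascl2, Axin2, Rnf43 and Nkd1 held neither. Among all 32851 windows, 3.73% held CTTTGAT and 16.0% held CTTTGA. Capitals mark the matches. The Sp5 window lies at chr2:70474673-70474972 on the plus strand and holds CTTTGA at position -204 and CTTTGAT at position -104 from the start site. The Tnfrsf19 window is the one of 2 for this gene that held a match, at chr14:61037938-61038237 on the minus strand, with CTTTGAT read on the opposite strand (ATCAAAG as printed) at position -202.
Sp5: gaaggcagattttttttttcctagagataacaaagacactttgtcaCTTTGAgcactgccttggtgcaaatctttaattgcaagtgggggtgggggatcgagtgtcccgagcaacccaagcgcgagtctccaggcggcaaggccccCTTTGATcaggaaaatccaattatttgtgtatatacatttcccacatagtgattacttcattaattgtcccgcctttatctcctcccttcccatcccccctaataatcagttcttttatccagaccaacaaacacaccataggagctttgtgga
Tnfrsf19: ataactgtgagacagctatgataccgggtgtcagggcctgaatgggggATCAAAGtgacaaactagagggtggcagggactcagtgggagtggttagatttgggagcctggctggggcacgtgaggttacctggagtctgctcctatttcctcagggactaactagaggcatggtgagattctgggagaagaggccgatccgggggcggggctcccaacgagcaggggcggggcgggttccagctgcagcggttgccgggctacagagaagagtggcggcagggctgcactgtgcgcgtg
These 2 genes, which alone among the 7 held the motif, had unlike patterns on the arrays, as given below.

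The members fell into unlike patterns over the 4 arrays. Lgr5, Ascl2, Axin2, Rnf43, Znrf3 and Tnfrsf19 were highest on y-organoid, with o-organoid next. Lgr4 was highest on crypt, and Nkd1, Sp5 and Notum were highest on whole intestine. These orders depend on the scaling. With the deposited scaling o-organoid stood above y-organoid for Lgr5 (0.10), Ascl2 (0.52) and Znrf3 (0.17). Sp5 (0.42) and Notum (0.67) then stood higher on crypt than on whole intestine. Lowest on whole intestine were 6 members, Lgr5, Lgr4, Ascl2, Axin2, Rnf43 and Znrf3. Of the 30 pairs of neighbours in these orders, 7 differed by less than 2 technical SDs.

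**Figure D1:**
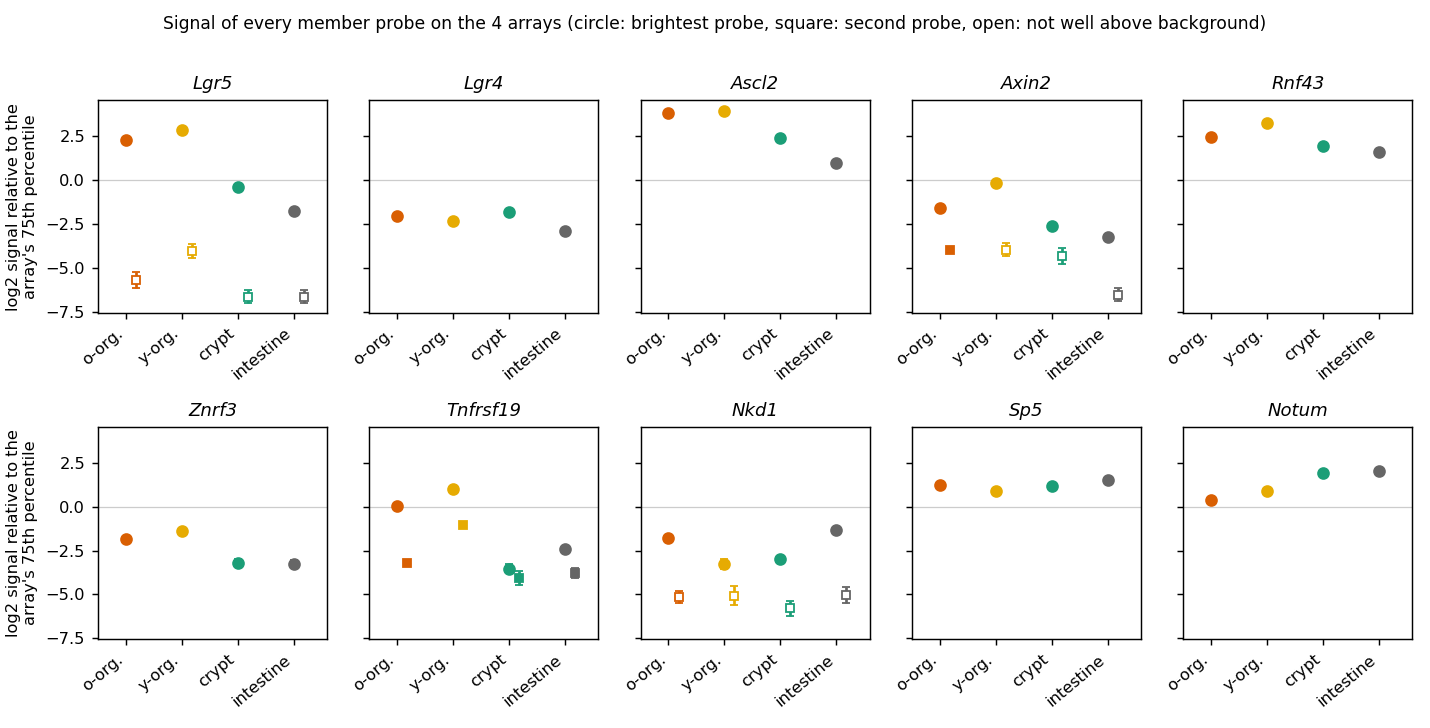
Log2 signal of all 14 member probes relative to the 75th percentile of each array, in 1 panel per gene, for o-organoid, y-organoid, crypt and whole intestine (1 array each). Circles are the brightest probe, squares the second probe, open symbols are not well above background, and bars are the technical SD. By their brightest probes Lgr5 and Tnfrsf19 stand far higher on both organoid arrays than on crypt, whereas Notum stands lower there. The second Tnfrsf19 probe stands 3.05 above crypt on y-organoid and 0.84 above it on o-organoid.

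Among the receptors, Lgr5 had intensities of 3200.2 on o-organoid, 2028 on y-organoid, 357 on crypt and 115 on whole intestine. Relative to their arrays these were log2 signals of 2.31, 2.85, -0.40 and -1.75 in the same order. Ranked by signal, every step between neighbouring arrays exceeded 2 technical SDs. The order of the organoid arrays turned with the deposited scaling, where o-organoid exceeded y-organoid by 0.10. The range over the arrays was 4.60 (technical SD 0.11), against 4.56 (0.26) for Tnfrsf19, and these widest ranges of the members did not differ beyond the technical SD. The probe lies at chr10:114887403-114887462 of build mm9, minus strand, and names NM_010195. A second Lgr5 probe, 13283 bases away and listed under an Ensembl transcript, was not well above background on any array, with intensities of 12.6, 17.1, 4.79 and 3.87 in the order o-organoid, y-organoid, crypt and whole intestine.

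Lgr4, the R-spondin receptor with the broader expression in the gut, had intensities of 158 on o-organoid, 56.7 on y-organoid, 135 on crypt and 52.9 on whole intestine. Its log2 signals were -2.03, -2.31, -1.80 and -2.87 in that order. The crypt signal did not stand above o-organoid, nor o-organoid above y-organoid, by 2 technical SDs. The 2 receptors thus had unlike profiles: the difference between y-organoid and crypt was larger for Lgr5 than for Lgr4 by 3.76, and that between o-organoid and crypt by 2.94. Only normexp background correction, quantile normalization and the median over a gene's probes could change these 2 values. Both stayed above 2.0 there, with lowest values of 3.0 and 2.06. The other alternative settings left them unchanged by construction.

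Tnfrsf19, also called Troy, is a receptor of the tumor necrosis factor family and a Wnt target in crypt stem cells. Its brightest probe (chr14:61582873-61582932, mm9, minus strand) had intensities of 652 on o-organoid, 569.8 on y-organoid, 40.5 on crypt and 73.3 on whole intestine. The log2 signals were 0.02, 1.02, -3.54 and -2.40, so that crypt was lowest and each step exceeded 2 technical SDs. Its second probe, 6794 bases away, had intensities of 68.6, 139, 28.1 and 28.0 in the same order and was well above background on all arrays. The probes differed in size: y-organoid exceeded crypt by 4.56 on the brightest probe and by 3.05 on the other, and o-organoid exceeded crypt by 3.56 and by 0.84.

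Of the transcription factors, Ascl2, which maintains crypt base stem cells, had intensities of 9143 on o-organoid, 4358 on y-organoid, 2476 on crypt and 748 on whole intestine. Its log2 signals were 3.83, 3.95, 2.39 and 0.95. The organoid arrays differed from each other by less than 2 technical SDs (-0.12 with a technical SD of 0.063), while each step below them was 1.44. Sp5, a zinc finger factor that Wnt signalling induces and that represses other Wnt targets, had intensities of 1514 on o-organoid, 532 on y-organoid, 1075 on crypt and 1105 on whole intestine. On the log2 scale these were 1.23, 0.92, 1.19 and 1.52. Sp5 had the narrowest range of the members, 0.60, and o-organoid and crypt did not differ beyond the technical SD.

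The surface ubiquitin ligases Rnf43 and Znrf3 had their highest log2 signal relative to the array on y-organoid, which did not hold for Znrf3 with the deposited scaling. Rnf43 had intensities of 3532 on o-organoid, 2656 on y-organoid, 1849 on crypt and 1156 on whole intestine, or log2 signals of 2.46, 3.24, 1.97 and 1.58, each step beyond 2 technical SDs. Znrf3 had intensities of 177 on o-organoid, 107.2 on y-organoid, 51.8 on crypt and 40.8 on whole intestine, with log2 signals of -1.86, -1.39, -3.19 and -3.24. Crypt and whole intestine did not differ for Znrf3 beyond the technical SD (0.056 with a technical SD of 0.26).

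Axin2 was read with confidence by 1 of its 2 probes. That probe (chr11:108803927-108803986, mm9, plus strand) is shown because the Axin2 results rest on it alone.
Axin2 probe: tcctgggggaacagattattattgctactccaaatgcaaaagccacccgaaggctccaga
Its intensities were 213 on o-organoid, 251 on y-organoid, 77.9 on crypt and 41.2 on whole intestine. The log2 signals of -1.60, -0.17, -2.60 and -3.23 were each apart by more than 2 technical SDs. The other probe, 8107 bases away, holds 20.0% G and C against 48.3% in the one shown. It was above background on o-organoid alone, with intensities of 40.9 there, 18.3 on y-organoid, 23.7 on crypt and 4.23 on whole intestine.

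Nkd1 and Notum, the other feedback inhibitors, had other profiles. Nkd1 had intensities of 187 on o-organoid, 29.1 on y-organoid, 60.0 on crypt and 152 on whole intestine. Its log2 signals were -1.79, -3.28, -2.98 and -1.34, and y-organoid and crypt did not differ beyond the technical SD. A second Nkd1 probe was not well above background on any array, so Nkd1 rests on 1 probe of low signal. Notum had intensities of 828 on o-organoid, 525 on y-organoid, 1805 on crypt and 1554 on whole intestine, with log2 signals of 0.36, 0.90, 1.93 and 2.01. Both organoid arrays lay below both fresh tissues, and crypt and whole intestine did not differ beyond the technical SD.

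Crypt was compared with whole intestine, which asks how far the members are enriched where the stem cells lie. The stem cell genes Ascl2, Lgr5 and the receptor Lgr4 were higher on crypt, by 1.44 (technical SD 0.088), 1.35 (0.12) and 1.07 (0.19), or 2.71-, 2.54- and 2.09-fold. Nkd1 and Tnfrsf19 were lower on crypt, with differences of -1.63 (0.19) and -1.15 (0.28), so that whole intestine was 3.1- and 2.22-fold higher. Axin2 (0.63), Rnf43 (0.39), Znrf3 (0.056), Notum (-0.074) and Sp5 (-0.33) lay within 2-fold. Thus 3 of 10 members were higher and 2 lower, where among 18215 genes 6.68% were higher and 14.4% lower. The members' median was 0.22, against 0.056 over all genes. Lgr5 exceeded 97.4% and Ascl2 97.9% of genes in this difference, and Axin2 exceeded 83.0%.

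These counts depend on the scaling. With the deposited scaling, 37.5% of all genes were higher and 8.49% lower on crypt, with quantile normalization 12.5% and 10.69%, and with centring on epithelial genes 0.884% and 31.5%. Under these and the other alternatives Lgr5 ranged between 0.64 and 2.10, Ascl2 between 0.73 and 2.19, Lgr4 between 0.36 and 1.81, Nkd1 between -2.34 and -0.88 and Tnfrsf19 between -1.85 and -0.40, without a change of sign, while Axin2, Rnf43, Znrf3, Sp5 and Notum changed sign in at least 1. Each of the 5 members past 2-fold fell short of it in at least 1 alternative, Tnfrsf19 in 4 of 6, and on its second probe the difference of Tnfrsf19 was -0.28. The alternative with no filter on dim probes could not change a member, since by their brightest probes all were well above background. Transcripts of other cells moved with the members that were lower on crypt: all 12 stroma genes were at least 2-fold lower there (median -6.06), and 9 of 9 measured smooth muscle genes were (median -5.52), with summed signals of 2.55 on crypt and 91.0 on whole intestine. On crypt 11 of the 12 stroma genes, among them the matrix genes Dcn and Col1a2, were not well above background. Of the immune cell genes 9 of 11 were lower on crypt, of the endothelial genes 6 of 7 measured, and of the enteric neuron and glia genes 5 of 7 measured, with summed signals of 33.3, 4.52 and 0.290 on crypt against 137, 12.6 and 1.38 on whole intestine. The part of these cells in the signals of Nkd1 and Tnfrsf19 was not tested. Proliferation genes, by contrast, were higher on crypt in 10 of 11 cases, with a median of 1.55, led by Top2a (2.03) and Cdk1 (1.96). All 12 enterocyte genes lay within 2-fold (median -0.27). Of 8 Paneth cell genes 0 were higher on crypt, 7 lay within 2-fold and 1 was lower, Pnliprp2 (-3.80), with a median of 0.54.

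**Figure D2:**
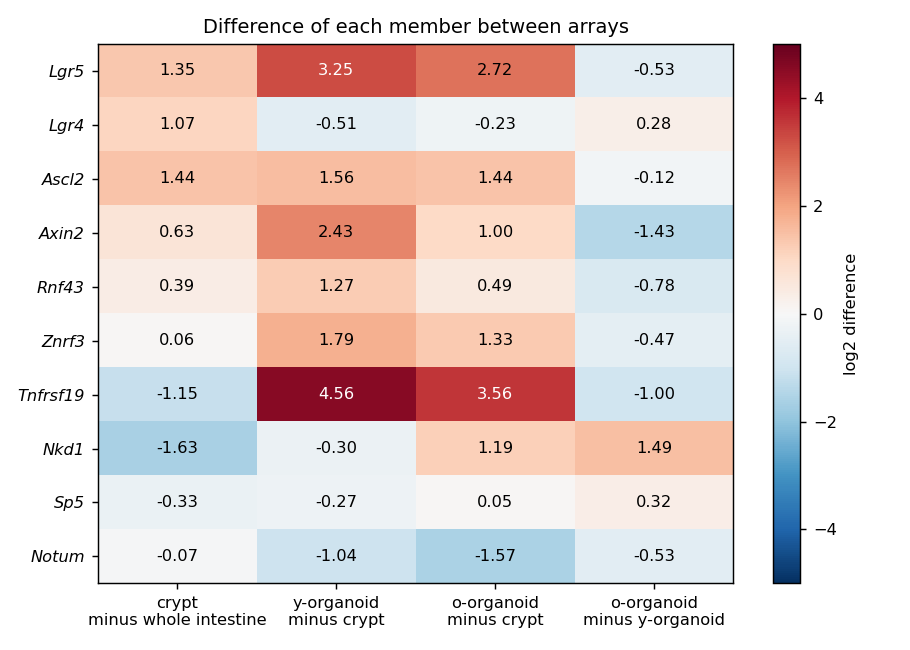
Log2 difference of each member (rows) in the 4 comparisons (columns), 1 array against 1 array, red where the first named array is higher and blue where it is lower. The largest values are those of Tnfrsf19 and Lgr5 for each organoid array against crypt.

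The y-organoid array was compared with crypt. Tnfrsf19, Lgr5, Axin2, Znrf3, Ascl2 and Rnf43 were higher on y-organoid, with differences of 4.56 (technical SD 0.26), 3.25 (0.096), 2.43 (0.15), 1.79 (0.21), 1.56 (0.084) and 1.27 (0.088). As folds these were 23.6, 9.51, 5.40, 3.47, 2.95 and 2.41. Notum was lower, at -1.04 (0.093), or 2.05-fold higher on crypt. Nkd1 (-0.30), Sp5 (-0.27) and Lgr4 (-0.51) lay within 2-fold. So 6 of 10 members were higher and 1 was lower, where 18.5% of 17210 genes were higher and 13.6% lower, and the members' median was 1.41 against 0.16 over all genes. Tnfrsf19 exceeded 99.8% and Lgr5 98.9% of genes.

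With the deposited scaling 9.16% of all genes were higher and 26.6% lower on y-organoid, and with centring on epithelial genes 72.0% and 2.91%. Lgr5, Ascl2, Axin2, Znrf3 and Tnfrsf19 were more than 2-fold higher under all 6 alternatives, and Rnf43 fell short of it in 1 (0.75). Notum, at -1.55 to 0.45, changed sign with centring on epithelial genes. The members did not move together: the difference of Lgr5 exceeded that of Notum by 4.29, a quantity free of any constant set on an array, which was 3.95 at its lowest over the alternatives. Likewise the difference of Ascl2 exceeded that of Sp5 by 1.83, with 1.73 as the lowest value. All 12 enterocyte genes were lower by 2-fold or more on y-organoid (median -4.28), led by the lactase gene Lct (-8.85). So were 8 of 8 Paneth cell genes (median -2.10), while 0 of 11 proliferation genes passed 2-fold either way. The part of cell makeup in these differences was not tested. Of 10 smooth muscle genes 3 were above background on y-organoid and 2 on crypt, with summed signals of 1.13 and 2.55, and 2 of 9 measured immune cell genes were lower on y-organoid.

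For o-organoid the same crypt array served, so the organoid comparisons share it. RNA input was 40 ng for o-organoid and 20 ng for crypt, and its part cannot be told apart from the sample. Tnfrsf19 (3.56, technical SD 0.26), Lgr5 (2.72, 0.092), Ascl2 (1.44, 0.079), Znrf3 (1.33, 0.20), Nkd1 (1.19, 0.19) and Axin2 (1.001, 0.15) were higher on o-organoid, Axin2 just at the threshold. Their folds were 11.8, 6.57, 2.71, 2.51, 2.28 and 2.0. Notum was lower, at -1.57 (0.086), or 2.97-fold higher on crypt. Rnf43 (0.49), Sp5 (0.047) and Lgr4 (-0.23) lay within 2-fold. Here too 6 of 10 members were higher and 1 lower, where 8.58% of 17211 genes were higher and 13.5% lower. The members' median was 1.10 against 0.00 over all genes. Lgr5 exceeded 99.2% and Notum 6.74% of genes.

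Lgr5, Ascl2 and Tnfrsf19 were more than 2-fold higher on o-organoid under all 6 alternatives, but on the second probe of Tnfrsf19, also well above background, the difference was 0.84, or 1.79-fold. Normexp background correction brought Axin2 to 0.58, Znrf3 to 0.58 and Nkd1 to 0.60, a setting in which 4.44% of all genes were higher. Axin2 also fell short of 2-fold with quantile normalization (0.88) and with the median over probes (0.67), and Nkd1 with the median over probes (0.92). Notum lay at 0.040 with centring on epithelial genes, a setting in which 76.4% of all genes were higher on o-organoid and 2.53% lower. The difference of Lgr5 exceeded that of Notum by 4.29, and by 3.40 at the lowest. Among the 12 enterocyte genes 11 passed 2-fold downward on o-organoid (median -3.39), with Lct at -7.62, as did 5 of 8 Paneth cell genes (median -1.03) and 6 of 9 measured immune cell genes (median -1.12). How far this makeup bears on the members was not tested.

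**Figure D3:**
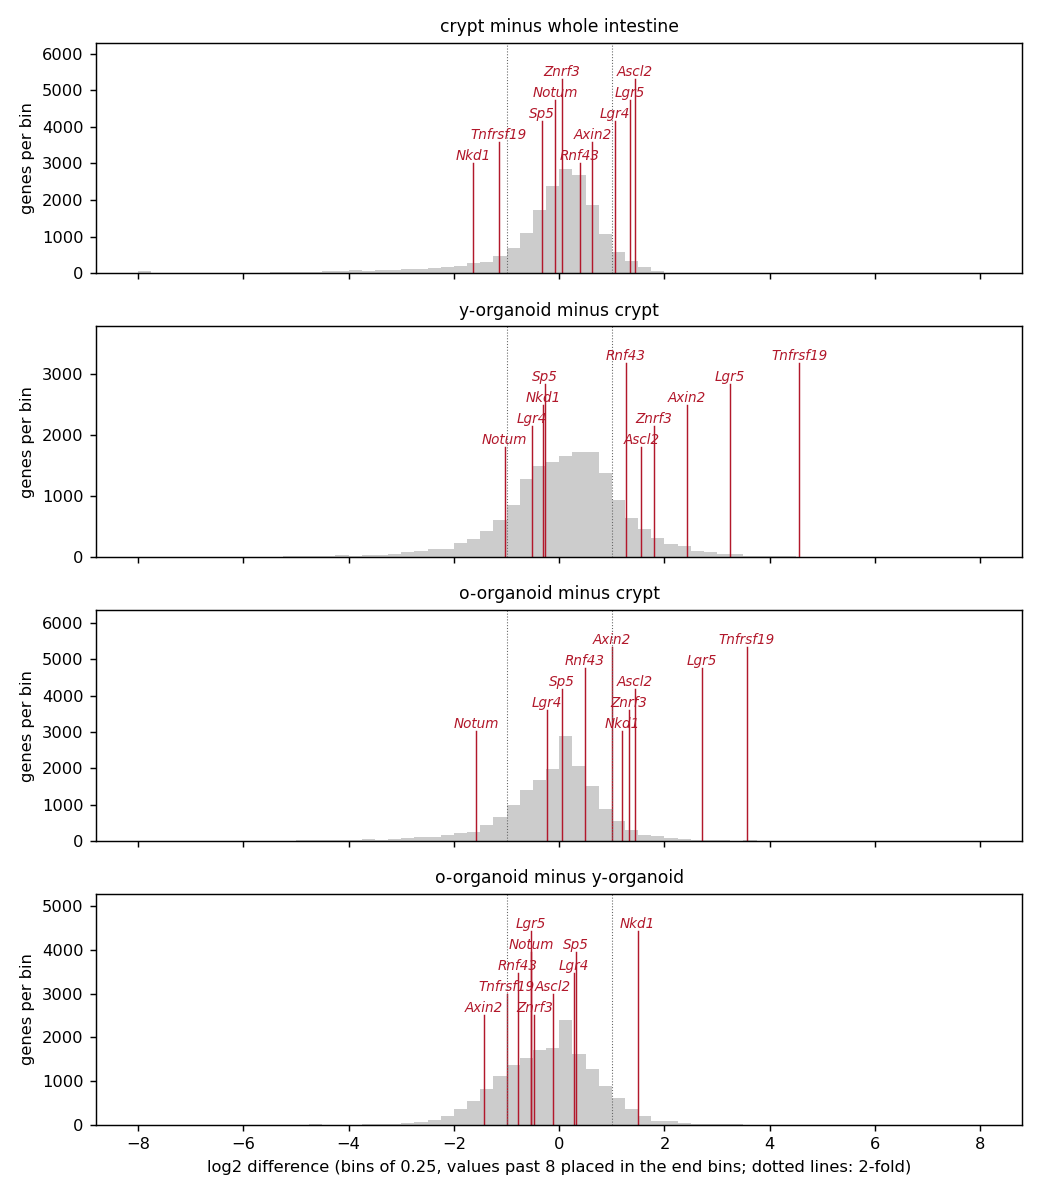
Histograms of the log2 difference of all genes detected on either of the arrays compared (grey, genes per bin of 0.25), in 1 panel per comparison, with the members marked as red lines and the 2-fold limits dotted. Tnfrsf19 and Lgr5 lie in the upper tail of both comparisons of an organoid with crypt, while Notum lies toward the lower side.

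The o-organoid array was set against y-organoid. Nkd1 was higher on o-organoid, by 1.49 (technical SD 0.29), or 2.81-fold, and exceeded 97.3% of genes. Axin2 was lower on o-organoid, at -1.43 (0.096), which made y-organoid 2.70-fold higher. The other 8 members lay within 2-fold, with Tnfrsf19 (-0.998) just inside the limit, then Rnf43 (-0.78), Notum (-0.53), Lgr5 (-0.53), Znrf3 (-0.47), Ascl2 (-0.12), Lgr4 (0.28) and Sp5 (0.32). Hence 1 of 10 members was higher and 1 lower, where 8.27% of 17309 genes were higher and 19.3% lower, and the members' median was -0.50 against -0.15 over all genes.

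Scaling moved this comparison of all genes too: 25.5% were higher and 6.40% lower on o-organoid with the deposited scaling, 10.9% and 11.9% with quantile normalization, and 10.5% and 16.1% with centring on epithelial genes. Nkd1 (0.37 to 2.13) and Axin2 (-1.43 to -0.73) kept their signs in all 6 alternatives, as did Rnf43, Tnfrsf19 and Sp5. Lgr5 (-1.09 to 0.10), Lgr4, Ascl2, Znrf3 and Notum each changed sign in at least 1. Nkd1 fell short of 2-fold with normexp (0.37) and with the median over probes (0.70), and Axin2 with the deposited scaling (-0.79) and the median over probes (-0.73). The difference of Axin2 lay below that of Nkd1 by 2.92 (a value of -2.92), and this was -1.43 at the weakest, with the median over the probes of each gene. On the second probe of Tnfrsf19 the difference was -2.21. Markers of differentiated cells also differed between the organoid arrays. Of 8 Paneth cell genes 7 were higher on o-organoid (median 1.35), led by the protease gene Mmp7 (3.12), with summed signals of 519 on o-organoid and 205 on y-organoid. Of 11 measured enterocyte genes 5 were higher (median 0.99), led by the retinol-binding gene Rbp2 (3.42), and 0 were lower. Proliferation genes were higher in 2 of 11 cases, and 2 of 7 measured immune cell genes were lower on o-organoid. Their part in the members' differences was not tested. The amount of labelled RNA differed too, 40 ng for o-organoid and 20 ng for y-organoid, and cannot be told apart from the sample.

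**Figure D4:**
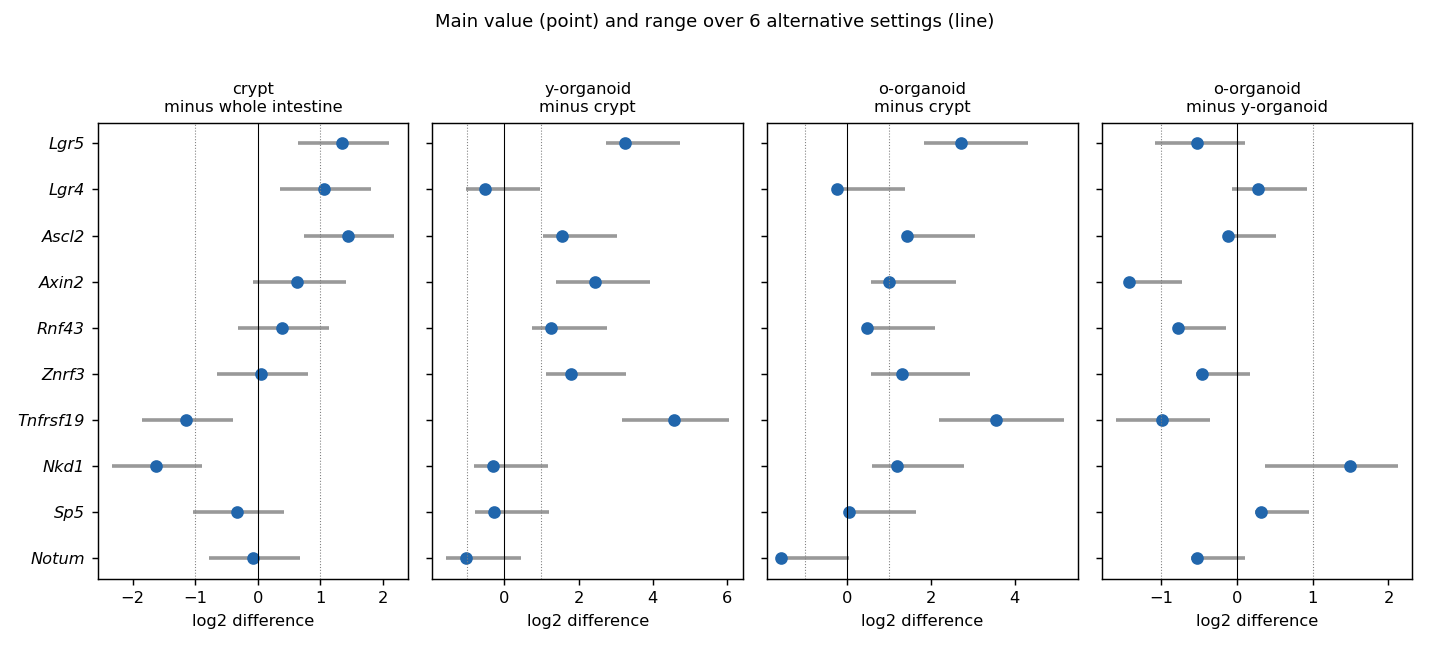
Log2 difference of each member in the 4 comparisons (points) with its range over 6 alternative settings (lines). Dotted lines mark 2-fold. The ranges of Lgr5, Ascl2, Axin2, Znrf3 and Tnfrsf19 for y-organoid against crypt stay above 1, as do those of Lgr5, Ascl2 and Tnfrsf19 for o-organoid against crypt.

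Genes beside the members in the pathway were taken from 3 further lists. R-spondins, the ligands of Lgr4 and Lgr5, were mostly not detected: Rspo1 and Rspo3 were well above background on whole intestine alone, with log2 signals of -1.12 and -2.17 there, so that they were at least 10.6- and 5.14-fold lower on crypt. Rspo4 was above background on y-organoid alone (-3.53). Rspo2 and Lgr6, the third receptor of the family, were not well above background on any array.

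In the list of 20 core signalling genes, 18 were measured in each comparison. Among all genes 6.68% were higher and 14.4% lower on crypt than on whole intestine. These shares were 18.5% and 13.6% for y-organoid against crypt, and 8.58% and 13.5% for o-organoid against crypt. For o-organoid against y-organoid they were 8.27% and 19.3%. Between crypt and whole intestine 0 were higher and 1 was lower, the transcription factor Lef1 (-1.21), with a median of 0.12. On y-organoid against crypt 5 were higher and 0 lower (median 0.83), led by the transcription factors Tcf7 (2.34) and Tcf7l2 (1.66). On o-organoid against crypt 1 was higher, the Dishevelled gene Dvl2 (1.89), and 0 were lower (median -0.046). For o-organoid against y-organoid 1 was higher, Axin1 (1.01), and 6 were lower (median -0.88), led by Tcf7l2 (-1.73) and Dvl3 (-1.68). Beta-catenin itself, Ctnnb1, had log2 signals of 2.72 on o-organoid, 2.05 on y-organoid, 2.67 on crypt and 2.52 on whole intestine, and lay within 2-fold in all 4 comparisons.

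In the list of 20 other Wnt target genes, 5 of 16 measured were higher and 1 lower on crypt than on whole intestine (median 0.61). The shares of all genes to set beside these counts are those given for the core list. Slc12a2, an ion cotransporter of crypt cells (1.60), and the cell cycle gene Ccnd1 (1.33) led, and the secreted modulator Dkk3 was at least 43.1-fold lower on crypt. On y-organoid against crypt 5 of 15 were higher and 0 lower (median 0.58), with the transcription factors Sox4 at 2.39 and Myc at 1.83. On o-organoid against crypt 5 of 16 were higher and 1 lower (median 0.47), with Myc at 2.31, the BMP co-receptor Rgmb at 1.91 and the growth factor Fgf9 at -1.85. Between o-organoid and y-organoid 0 were higher and 2 lower (median -0.076), Fgf9 (-2.08) and Nkd2 (-1.49). Nkd2, the close relative of Nkd1, thus differed in the opposite direction to Nkd1 between the organoid arrays.

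Among the members, the profile closest to that of Lgr5 was that of Ascl2, with a root mean square difference of 0.73 after each gene's 4 log2 signals were centred, and the farthest was Notum at 2.55. Of 11893 annotated genes outside the members that were above background on all 4 arrays, the 5 closest to Lgr5 were Rcor2 (0.22), S100a14 (0.28), Kif12 (0.33), Tcf23 (0.33) and Rrp1b (0.36). Rcor2, a corepressor gene, had log2 signals of 1.14 on o-organoid, 2.23 on y-organoid, -1.08 on crypt and -2.43 on whole intestine. The 5 closest to Axin2 were Ankrd26 (0.029), Atad2 (0.070), Etnk2 (0.078), Arid5b (0.087) and Gm3448 (0.10). With 4 arrays many genes can share a profile, and these names describe the arrays only.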

How the data were processed

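Total RNA was labelled with Cy3 and hybridised to 1-colour Agilent arrays, 1 per sample, per the labels' protocols. Each deposited scanner file gives spot intensity on a linear scale, made with Feature Extraction 10.7.3.1 with background subtraction and detrending, per the file headers, which also give build mm9 for probe coordinates. The deposited value table was found to be a ratio of each processed intensity to 1 constant per array, with a median of 1.0 in each column, linear and without centring of genes, by a tool that no label names.

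Control spots (1377 per array) and spots flagged as outliers (108 to 165) were dropped. The log2 of the processed intensity was taken, less that of the array's 75th percentile (282 to 644). Where a gene name had several probes, the one of highest mean over the arrays was used. A side not well above background was raised to the array's lowest well-detected signal where it lay under it, and a fold from it is written as at least N-fold. Where such a difference would point against the detected side it was set to 0, and these values of 0 enter the medians and shares over all genes. Genes dim on both arrays were left out. The technical SD pools probes spotted 10 times (399 in all) within 1 log2 unit of the signal, and the number of arrays limits the precision. Tools were Python 3.11.15, pandas 2.3.3 and limma 3.58.1.

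The members and lists were chosen with earlier results of these data known. Named were all members, the up to 2 genes per list, direction and comparison with the largest difference past 2-fold (not all are printed), and the 5 genes closest to Lgr5 and to Axin2. Ctnnb1, Rspo2, Lgr6, Xist, Eif2s3y and Ddx3y were named outside this rule, after their values were seen. Of the lists, Amer1, Defa29, Mptx1 and Jchain were matched under older names, and Defa31 and Mptx2 were not matched. Alternatives were normexp background correction (offset 50), quantile normalization, the deposited table, centring on the median level of 12 epithelial genes, no filter on dim probes, and the median over the probes of a gene. Exon and UTR positions of the probes were not analysed here, nor were probes searched for shared sequence.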

Additional observations from a re-analysis of the deposited data

Results flagged for a closer look

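The organoid arrays differed from crypt in opposite directions for 2 members, and neither contrast was tested, since each group holds 1 array and both share crypt. Nkd1 had a difference of 1.19 for o-organoid and of -0.30 for y-organoid against crypt, the second within its technical SD of 0.33. Sp5 had 0.047 for o-organoid, within its technical SD of 0.087, and -0.27 for y-organoid. For y-organoid against crypt Nkd1 turned positive in 3 of 6 alternatives, at 0.23 with normexp, 1.19 with centring on epithelial genes and 0.22 with the median over probes, and Sp5 in 1, at 1.22 with centring on epithelial genes, so the directions were no longer opposite there.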

How the results depend on the processing

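Of 40 member differences, 24 kept their sign under all 6 alternatives. No filter on dim probes could not change a member difference, since every member was well above background, so such counts rest on the other alternatives. Of the 21 past 2-fold, 19 kept their sign and 8 stayed past 2-fold under all 6. The 2 that reversed were those of Notum with centring on epithelial genes, at 0.45 for y-organoid and 0.040 for o-organoid against crypt. That centring uses the median level of 12 genes, which was 4.40 on y-organoid, 4.28 on o-organoid and 5.89 on crypt. The median difference of these genes from crypt was smaller, -0.62 for y-organoid and -0.50 for o-organoid, and centring on it was not done. Of the 12, 3 were at least 2-fold lower in each, led by Krt20 and Vil1. On y-organoid 1 was higher and on o-organoid 0. Epithelial centring moved the median of all genes by -0.70 for crypt against whole intestine. The shift was 1.49 and 1.58 for y-organoid and o-organoid against crypt, and 0.12 for o-organoid against y-organoid. In the same order, the deposited table moved the median of all genes by 0.75, -0.52, 0.094 and 0.60. Quantile normalization moved it by 0.13, and no filter on dim probes by -0.51, for o-organoid against y-organoid, and no filter by -0.32 for o-organoid against crypt. The cause of the changes below was not otherwise tested.

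For crypt against whole intestine the members' median was -0.48 with epithelial centring, 0.97 with the deposited table and 0.49 with quantile normalization. Members higher there numbered 0 with epithelial centring (0.884% of all genes), 5 with the deposited table (37.5%) and 1 with normexp (3.44%). Members lower numbered 0 with the deposited table (8.49%) and 1 each with normexp (8.65%), quantile normalization (10.69%) and the median over probes (13.6%). For y-organoid against crypt the members' median was 2.90 with epithelial centring, 0.90 with the deposited table and 1.12 with normexp. Over all genes the median was 1.65, -0.36 and 0.20 in the same settings. Members lower numbered 0 with epithelial centring (2.91% of all genes), 2 with the deposited table (26.6%) and 0 with quantile normalization (15.4%). For o-organoid against crypt the members' median was 2.71 with epithelial centring and 1.22 with the deposited table, against 1.58 and 0.094 over all genes. It was 0.79 with the median over probes, 0.58 with normexp and 0.97 with quantile normalization, against 0.00, -0.019 and 0.056. Members higher there, 6 in the report, were 3 with normexp (4.44% of all genes) and 4 with the median over probes (8.40%). They were 5 with quantile normalization (8.76%) and 9 with epithelial centring (76.4%). Members lower were 0 with epithelial centring (2.53% of all genes). For o-organoid against y-organoid the members' median was -0.38 with epithelial centring and 0.14 with the deposited table, against -0.029 and 0.45 over all genes. Members higher there were 0 with normexp (4.93% of all genes) and with the median over probes (7.74%). Members lower were 0 with the deposited table (6.40% of all genes). They were 2 each with quantile normalization (11.9%) and the median over probes (18.6%). Leaving out a replicate and a paired analysis were not possible with 1 array per group. By their brightest probes the lowest log2 signals of members were those of Tnfrsf19 on crypt (-3.54), Nkd1 on y-organoid (-3.28) and Znrf3 on whole intestine (-3.24), and normexp moved Tnfrsf19 for y-organoid against crypt to 3.18, against 4.56.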
